A study of Mus musculus with 26 samples.

Results

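Genes of glycolysis, of lactate and pyruvate handling and of the oxygen-sensing pathway that acts on them were followed on 26 microarrays of mouse embryonic stem cells and epiblast-like cells. The list names 33 genes. Each was represented by the probe set annotated to that symbol alone with the highest mean over the 26 arrays, and 31 of the 33 had such a probe set, among 18194 genes measured in the same way. Gpi1 and Eno1 had none and were not analysed here. Of the 31 measured members, 18 had 2 or more single-symbol probe sets and 13 had 1.

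Glycolysis splits glucose into pyruvate in a chain of cytosolic enzymes, and many of its steps have several isoenzymes encoded by different genes. Pyruvate is either reduced to lactate by lactate dehydrogenase or oxidised in mitochondria by the pyruvate dehydrogenase complex, which pyruvate dehydrogenase kinases (Pdk genes) switch off by phosphorylation. Hypoxia-inducible factors, HIF, activate many of these genes when prolyl hydroxylases (Egln genes) do not mark them for destruction, and naive and epiblast-stage pluripotent cells are known to differ in how far they rely on glycolysis and respiration.

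The 13 groups had 2 arrays each, and all lines were C57BL/6 and male. Cells induced towards an epiblast-like state (EpiLC), taken on day 2 and day 3, had intact Prdm14 and carried the reporter transgenes Blimp1-mVenus and Stella-ECFP (BVSC). AGP14 cells were Prdm14 knockout cells with the pPyCAG-AGP14 transgene. Prdm14 knockout cells and wild-type cells without genetic modification made up the other lines, and Prdm14 itself encodes a PR-domain protein of naive stem cells and germ cells. Stem cells were grown on mouse embryonic fibroblast (MEF) feeders. For 2i, N2B27 was supplemented with 0.4 uM PD0325901, which inhibits MEK, 3 uM CHIR99021, which inhibits GSK3, and LIF at 1000 units per ml. Serum medium was GMEM with 20% fetal bovine serum, LIF at 1000 units per ml, 1 mM sodium pyruvate, 2 mM glutamine and 100 uM mercaptoethanol, and was used for 2 days, also without LIF (all 3 stem cell genotypes) or with PD0325901 at 0.4 uM (knockout and wild type). How many clones each line represents, and whether replicate arrays came from separate cultures, are not given in the labels. The spread behind each p-value is therefore that of the deposited arrays and may be technical.

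The deposited values are on a log scale with no base named. The highest value is 13.89, beyond what a natural log of scanner signals could reach, and base 2 was taken from that, so every log2 difference and fold below rests on that inference. Array medians lay between 4.86 and 5.01. The arrays split in 2 by a poly-A RNA added as a labelling control. The lys control read 13.39 to 13.57 on 12 arrays (EpiLC, and knockout and wild type in 2i and in serum with MEK inhibitor) and 6.77 to 7.38 on the other 14 (all serum and serum without LIF arrays, and AGP14 in 2i). The difference between the 3′ and 5′ Actb control probe sets, a measure of RNA and labelling quality, was 0.18 to 0.33 on the first set and 0.52 to 0.63 on the second. Serum against 2i in knockout and wild type, MEK inhibitor against serum, and AGP14 against knockout in 2i cross this split. Tests of whether the gap between knockout and wild type changed between serum and 2i, or with MEK inhibitor, also span it. The other comparisons do not. In bulk RNA, fewer cells of a type and less RNA per cell cannot be told apart.

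Marker genes fixed for this work followed the labels in part. The 8 naive stem cell markers averaged 11.5 to 11.8 in the 2i groups. In serum with MEK inhibitor they averaged 11.54 in wild type and 11.2 in knockout, and in AGP14 serum 11.2. The naive markers therefore do not set 2i apart from these groups. The 6 epiblast-like markers averaged 11.17 and 10.14 in EpiLC of day 2 and day 3, against 6.73 in wild type in 2i. They were as high in other groups, at 10.69 and 10.40 in knockout and wild-type serum and 11.07 and 11.10 without LIF, so they do not set EpiLC apart from these. Feeder signal was not constant. The 17 measured feeder fibroblast markers averaged 6.21 and 6.61 in EpiLC, 7.29 to 8.0 in serum with or without LIF, 8.65 and 8.80 in serum with MEK inhibitor (knockout and wild type) and 9.27 to 9.75 in 2i, and none was at 0 on any array. The Prdm14 probe set read 11.33 and 11.24 on the arrays labelled knockout in 2i, against 8.95 and 9.40 on wild-type arrays, and 10.60 and 10.87 with MEK inhibitor, against 9.04 and 9.48, which goes against the labels unless its probes lie outside the deleted part, and the labels do not say where they lie. AGP14 in 2i, with its transgene added to the knockout, read 9.30 and 9.11, below the knockout arrays, which lie on the other side of the spike-in split. "Knockout" below therefore means arrays labelled knockout.

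Nearly every member varied over the groups. By limma's moderated F test, 29 of the 31 varied at an adjusted p under 0.05, where 64.3% of all genes did, and the exceptions were Eno2 (adjusted p = 0.129) and Pdk2 (adjusted p = 0.824). Pdk1, the kinase gene for pyruvate dehydrogenase with the widest spread, ranged over 3.18 in log2 between its lowest and highest group means, from wild type in 2i to knockout in serum. Pfkp, a phosphofructokinase gene, ranged over 2.91 with its lowest mean in EpiLC of day 3, and Hk1, a hexokinase gene, over 2.15 with its highest mean in wild type in 2i. The narrowest ranges were those of Pgk1 (phosphoglycerate kinase), 0.26, and Pgam1 (phosphoglycerate mutase), 0.34, while other enzymes of the chain ranged over 0.62 (Aldoa), 0.64 (Gapdh), 1.17 (Tpi1) and 1.56 (Aldoc). Eno2, Slc16a3, Pdk2, Pfkfb3 and Pfkfb4 had means under 6.21, the median gene, and the other 26 members lay above it.

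**Figure D1:**
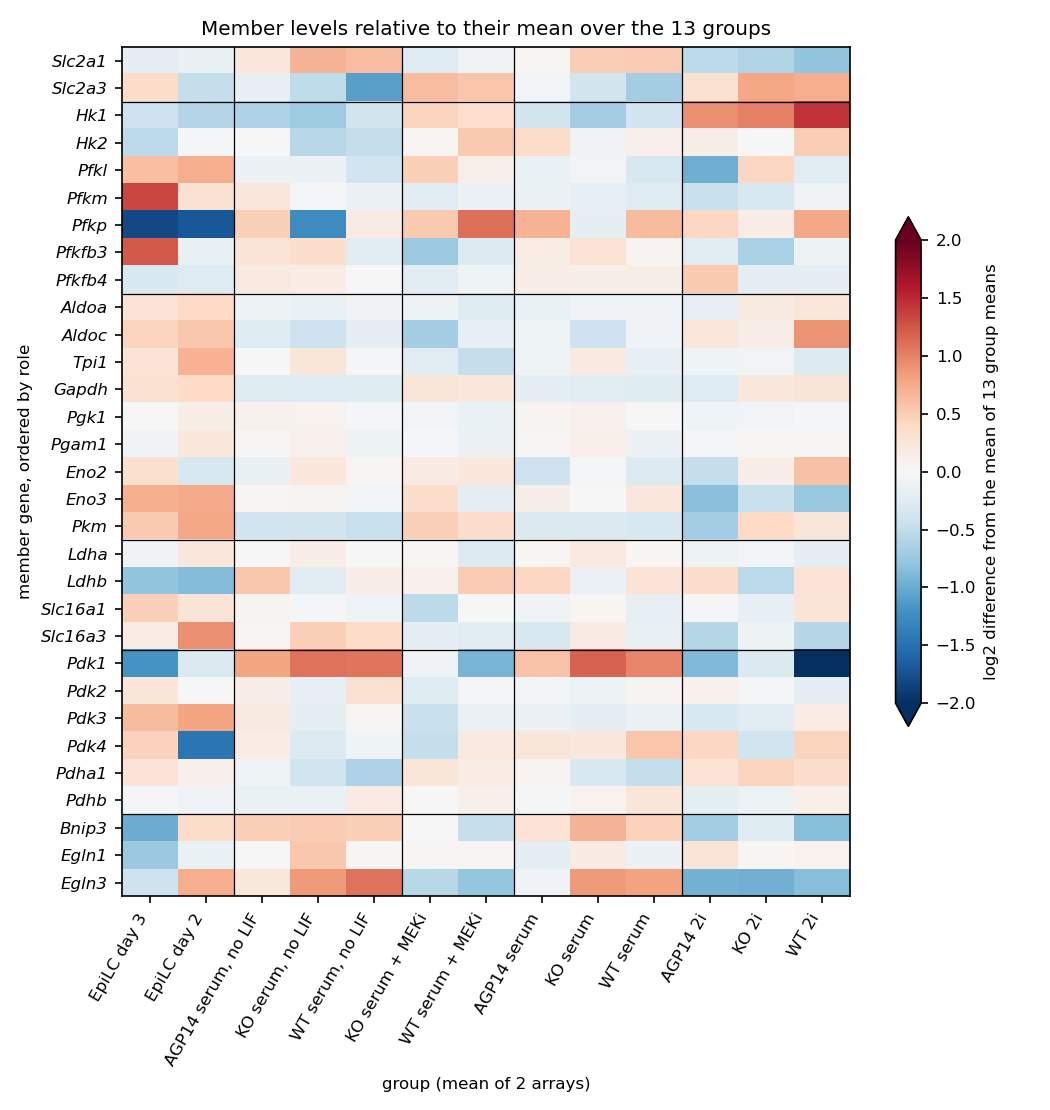
Colour shows each member's group mean (log2, 2 arrays) minus its mean over the 13 group means, with members in rows by role and groups in columns. Pdk1, Egln3 and Bnip3 are lower in 2i than in serum in each stem cell genotype, with Pdk1 lowest in wild type in 2i (9.11) and Bnip3 in EpiLC of day 3 (9.40), Hk1 runs the other way, and Pfkp is lowest in the EpiLC columns.

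The comparison of serum with 2i asks how the same cells differ between both culture states. Pdk1, the hypoxia-responsive genes Bnip3 and Egln3, the glucose transporter gene Slc2a1 and the enolase gene Eno3 rose in serum in AGP14, knockout and wild-type cells, and Hk1 fell in all 3. In AGP14 cells 7 members rose and 1 fell, where 9.97% of all genes rose and 8.22% fell. In knockout cells 10 rose and 9 fell, where 15.8% rose and 20% fell. In wild-type cells 6 rose and 10 fell, where 15.2% rose and 19.4% fell. As shares of the 31 members these are 22.6% higher and 3.2% lower in AGP14, 32.3% and 29.0% in knockout, and 19.4% and 32.3% in wild type. The median member difference was 0.14, 0.13 and -0.09 in AGP14, knockout and wild type, beside 0.01, 0.01 and -0.01 over all genes, so the list as a group did not shift by much in either direction.

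The glucose transporter genes changed in opposite directions. Slc2a1 (GLUT1) read 12.26 and 12.22 in AGP14 serum arrays against 11.63 and 11.72 in AGP14 2i arrays, 12.52 and 12.87 in knockout serum against 11.36 and 11.85 in knockout 2i, and 12.85 and 12.57 in wild-type serum against 11.19 and 11.65 in wild-type 2i. No serum array overlapped the 2i arrays of its genotype. The log2 differences were 0.56, 1.09 and 1.29 (SE 0.17 each; adjusted p = 0.0284, 5.9e-05 and 1.03e-05), and the AGP14 call was lost without any 1 of its 4 arrays (adjusted p 0.0879 to 0.149). Slc2a3 (GLUT3, the high-affinity transporter) read 11.83 and 12.28 in knockout serum against 13.20 and 13.21 in knockout 2i, and 11.62 and 11.87 in wild-type serum against 13.16 and 13.16 in wild-type 2i. It fell by 1.15 in knockout and by 1.41 in wild-type cells (adjusted p = 5.26e-06 and 5.48e-07), while in AGP14 cells, at 12.37 and 12.38 in serum against 12.73 and 12.72 in 2i, the difference of -0.35 did not pass. Its 2i values in knockout and wild type lay close to the highest value of the whole table, and whether bright signals are compressed there was not tested.

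Of the hexokinase genes on the list, Hk1 fell in serum in all 3 genotypes. Hk1 read 8.66 and 8.49 in AGP14 serum against 9.78 and 9.94 in AGP14 2i, 8.12 and 8.35 in knockout serum against 9.79 and 10.12 in knockout 2i, and 8.34 and 8.79 in wild-type serum against 10.29 and 10.48 in wild-type 2i. Every serum array lay at least 1 log2 unit below its 2i counterparts. The differences were -1.28, -1.72 and -1.82 (SE 0.17; adjusted p = 3.42e-05, 2.63e-07 and 1.6e-07), and all 3 calls held without each array in turn. Hk2, the other hexokinase gene on the list, fell by 0.38 in wild type (adjusted p = 0.011; lost without wild-type 2i array 2 or serum array 1, adjusted p = 0.116 and 0.13), and differed by -0.07 in knockout and 0.24 in AGP14 cells without passing.

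Along the chain the calls were not the same in every genotype, and those in knockout and wild type cross the spike-in split. Whether the differences in AGP14 were unlike those in the other genotypes was not tested. The AGP14 2i arrays lie on the other side of that split from the knockout and wild-type 2i arrays. Genotype and spike-in set therefore cannot be told apart between AGP14 and the others. The test of knockout against wild type did not call Eno3, Gapdh, Pkm, Pfkl or Aldoa. Eno3, the muscle-type enolase gene, rose by 0.94, 0.46 and 0.98 in AGP14, knockout and wild-type cells (adjusted p = 7.05e-04, 0.0471 and 1.83e-04), and the knockout call was lost without knockout 2i array 1 (adjusted p = 0.571) or either serum array (0.248 and 0.0604). Gapdh (glyceraldehyde-3-phosphate dehydrogenase) and Pkm (the muscle-type pyruvate kinase gene) fell in knockout by 0.42 and 0.68 and in wild type by 0.51 and 0.56. In AGP14 cells, whose serum and 2i arrays are on the same side of the split, Pkm rose by 0.41 (adjusted p = 3.72e-04) and Gapdh differed by 0.08. The values of both genes did not overlap between the spike-in sets. Gapdh read 13.37 to 13.59 on the high-lys arrays and 12.90 to 13.03 on the low-lys arrays, and Pkm 11.70 to 12.41 and 10.84 to 11.33. The sets also differ in medium and line, and the share of all genes without overlap was not computed. Gapdh was measured only by its control probe sets, and the 5′ one was used. The 3′ one differed by -0.24 in knockout and -0.31 in wild type, and the middle one by -0.5 and -0.57. The 3′ minus 5′ difference of Gapdh was -0.23 to -0.16 on the high-lys arrays and -0.03 to 0.05 on the low-lys arrays. Pfkl, the liver-type phosphofructokinase gene, likewise rose by 0.83 in AGP14 (adjusted p = 1.94e-04) and fell by 0.45 in knockout (adjusted p = 0.0107; lost without knockout 2i array 2 or serum array 1, adjusted p = 0.134 and 0.0924), and its further probe sets had the opposite sign in knockout (0.08 and 0.28). The lower values of Aldoa (aldolase A) in knockout and wild-type serum, by 0.26 and 0.30, had a difference of 0.03 in AGP14. For every member in knockout and wild type, Slc2a3 and Pdha1 included, medium and spike-in set cannot be told apart in this comparison.

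**Figure D2:**
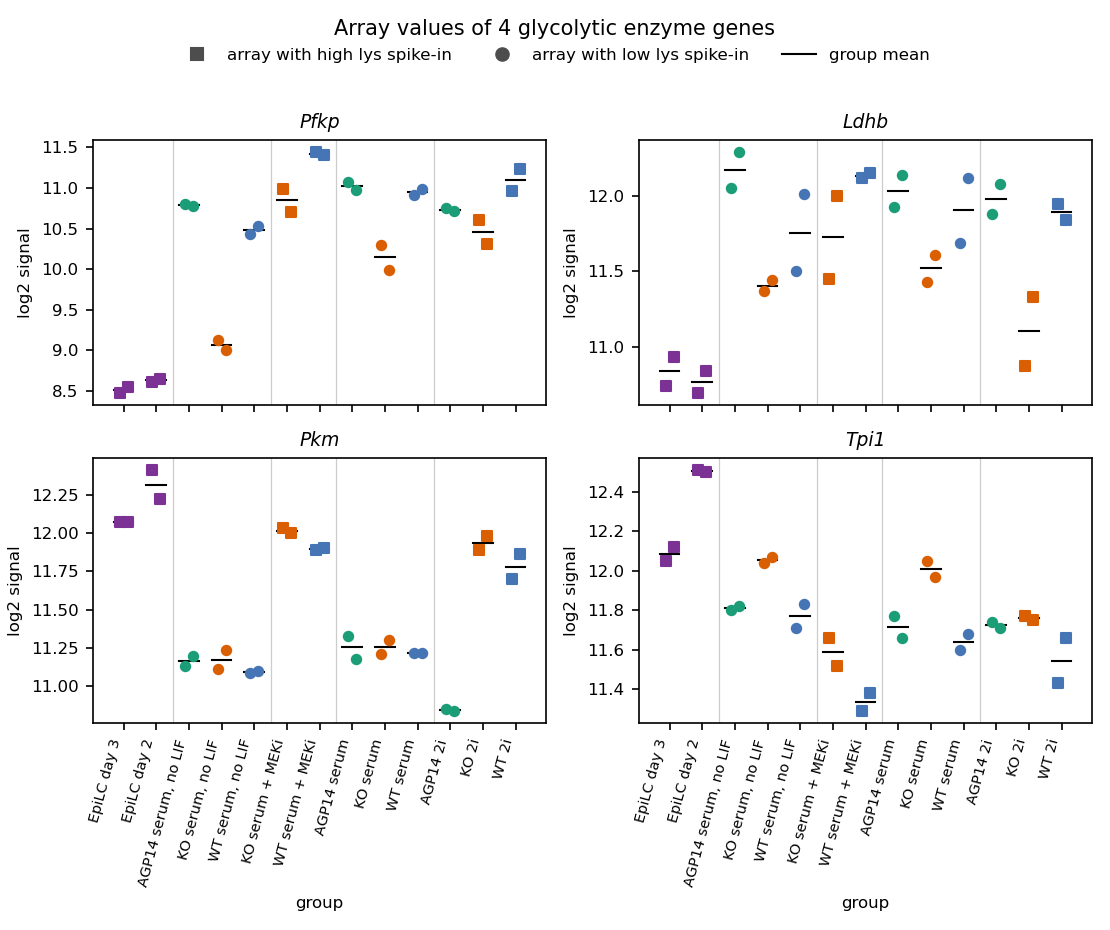
Points are the 2 arrays of each group (log2 signal) for Pfkp, Ldhb, Pkm and Tpi1, squares for arrays with high lys spike-in and circles for low, and bars are group means. Pkm separates by spike-in set, with 11.70 to 12.41 against 10.84 to 11.33, while Pfkp is lower in knockout than in wild type in each medium and lowest in EpiLC.

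Among the genes that control pyruvate oxidation, Pdk1 had the largest difference of the 31 members in AGP14 and wild type, while in knockout those of Egln3 and Hk1 were larger. It read 11.72 and 11.66 in AGP14 serum against 10.34 and 10.13 in AGP14 2i, 12.21 and 12.37 in knockout serum against 10.68 and 10.98 in knockout 2i, and 12.08 and 12.10 in wild-type serum against 8.90 and 9.32 in wild-type 2i. The groups did not overlap in any genotype, and the wild-type 2i arrays were the lowest of all. It rose by 1.45, 1.46 and 2.98 in AGP14, knockout and wild-type cells (SE 0.13; adjusted p = 8.38e-07, 1.14e-07 and 4.04e-11), which is 2.74-fold, 2.75-fold and 7.89-fold. Pdha1, the catalytic subunit gene of pyruvate dehydrogenase that Pdk1 phosphorylates, fell by 0.76 in knockout and by 0.85 in wild type (adjusted p = 6e-05 and 2.12e-05) and differed by -0.22 in AGP14, which did not pass. Pdhb, the other subunit gene of that enzyme, differed by 0.15 to 0.16 with no call. Among the other kinase genes Pdk4 rose by 0.62 in knockout (adjusted p = 0.00639), a call lost without knockout 2i array 1 or serum array 2 (adjusted p = 0.0895 and 0.059), and Pdk2 and Pdk3 passed in no genotype.

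Lactate genes changed less. Ldha, the lactate dehydrogenase subunit gene of glycolytic tissue, rose by 0.23 in knockout and by 0.22 in wild type, each lost without 1 array (highest adjusted p 0.0581 in knockout and 0.191 in wild type), and Ldhb had no call. Slc16a1, which encodes the lactate transporter MCT1, read 11.21 and 11.06 in knockout serum against 11.01 and 10.87 in knockout 2i, and 10.94 and 10.95 in wild-type serum against 11.41 and 11.32 in wild-type 2i. It rose by 0.20 in knockout (adjusted p = 0.0225; 0.246 and 0.266 without knockout 2i array 2 or serum array 1) and fell by 0.42 in wild type (adjusted p = 4.17e-05). Slc16a3, the exporter gene MCT4, was dim and had no call.

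Bnip3 and Egln3, which are known to respond to hypoxia, rose in all 3 genotypes, while other members known as HIF targets, such as Hk1 in all 3 and Slc2a3 in knockout and wild type, fell. Bnip3, a mitophagy receptor gene, read 10.79 and 10.59 in AGP14 serum against 9.77 and 9.64 in AGP14 2i, 10.99 and 11.17 in knockout serum against 10.17 and 10.16 in knockout 2i, and 10.83 and 10.90 in wild-type serum against 9.35 and 9.74 in wild-type 2i. It rose by 0.98, 0.92 and 1.32 (SE 0.14; adjusted p = 6.2e-05, 3.48e-05 and 6.14e-07). Egln3, a prolyl hydroxylase gene that HIF itself activates, read 7.94 and 7.85 in AGP14 serum against 6.95 and 7.10 in 2i, 8.86 and 8.78 in knockout serum against 7.42 and 6.58, and 8.79 and 8.75 in wild-type serum against 7.14 and 7.11. Its rises were 0.87, 1.82 and 1.64 (SE 0.17; adjusted p = 0.00135, 1.48e-07 and 5.69e-07), and no call of Bnip3 or Egln3 was lost without 1 array. Egln1, the main HIF prolyl hydroxylase gene, had no call, with differences of -0.44, 0.12 and -0.18.

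**Figure D3:**
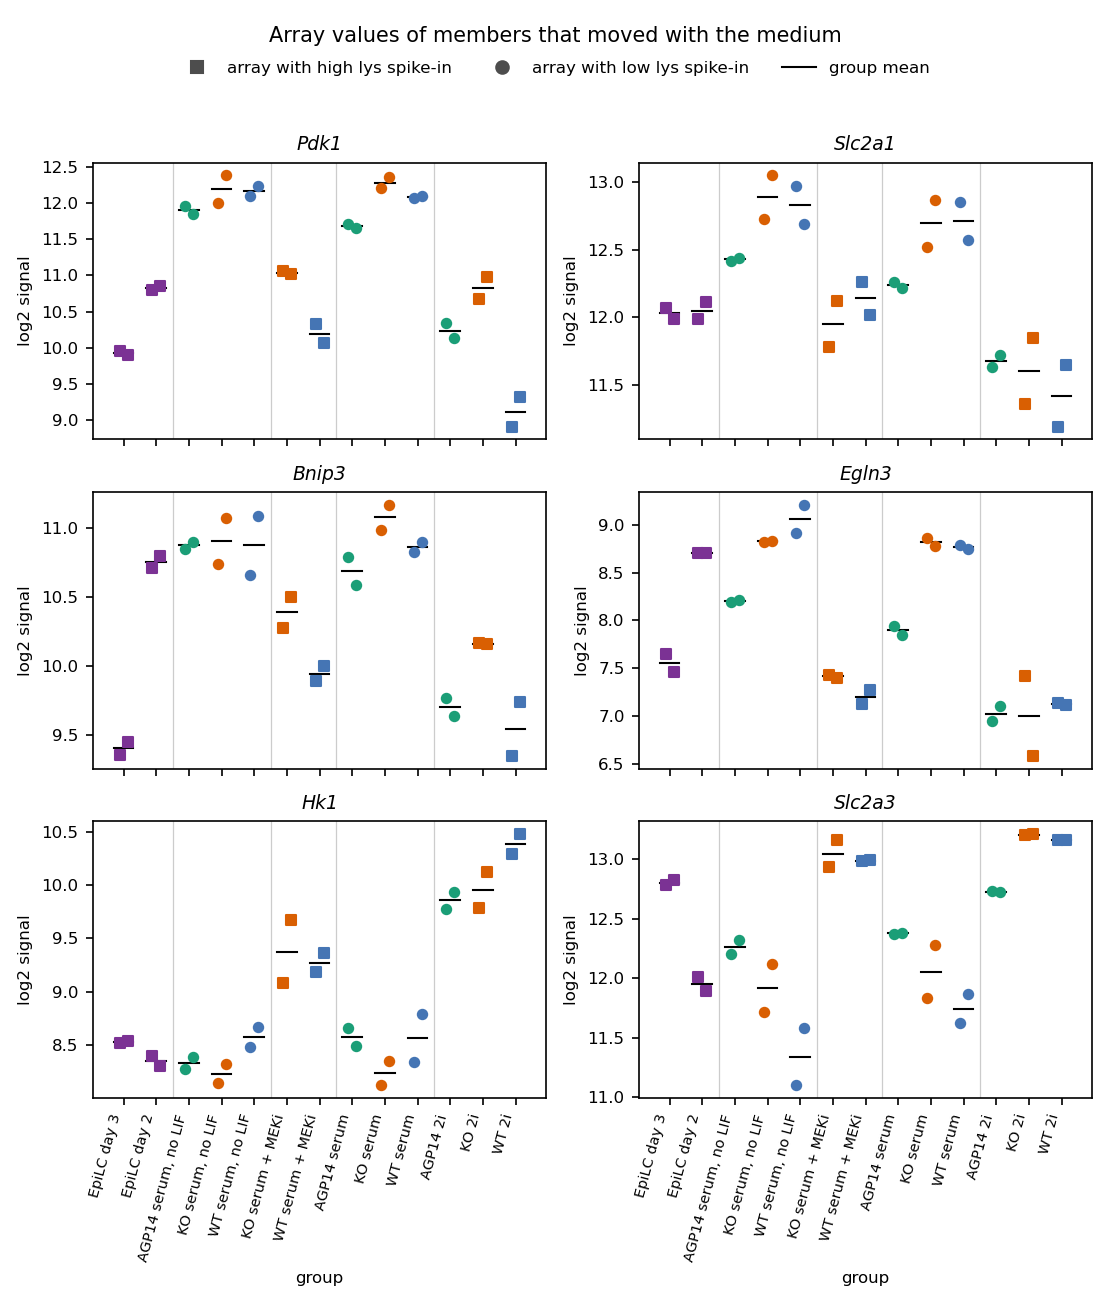
Points are the 2 arrays of each group (log2 signal) for Pdk1, Slc2a1, Bnip3, Egln3, Hk1 and Slc2a3, squares for arrays with high lys spike-in and circles for low, and bars are group means. In each stem cell genotype the serum arrays of Pdk1, Slc2a1, Bnip3 and Egln3 lie above the 2i arrays and those of Hk1 below, and AGP14, whose arrays are all circles, shows the same order.

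**Figure D4:**
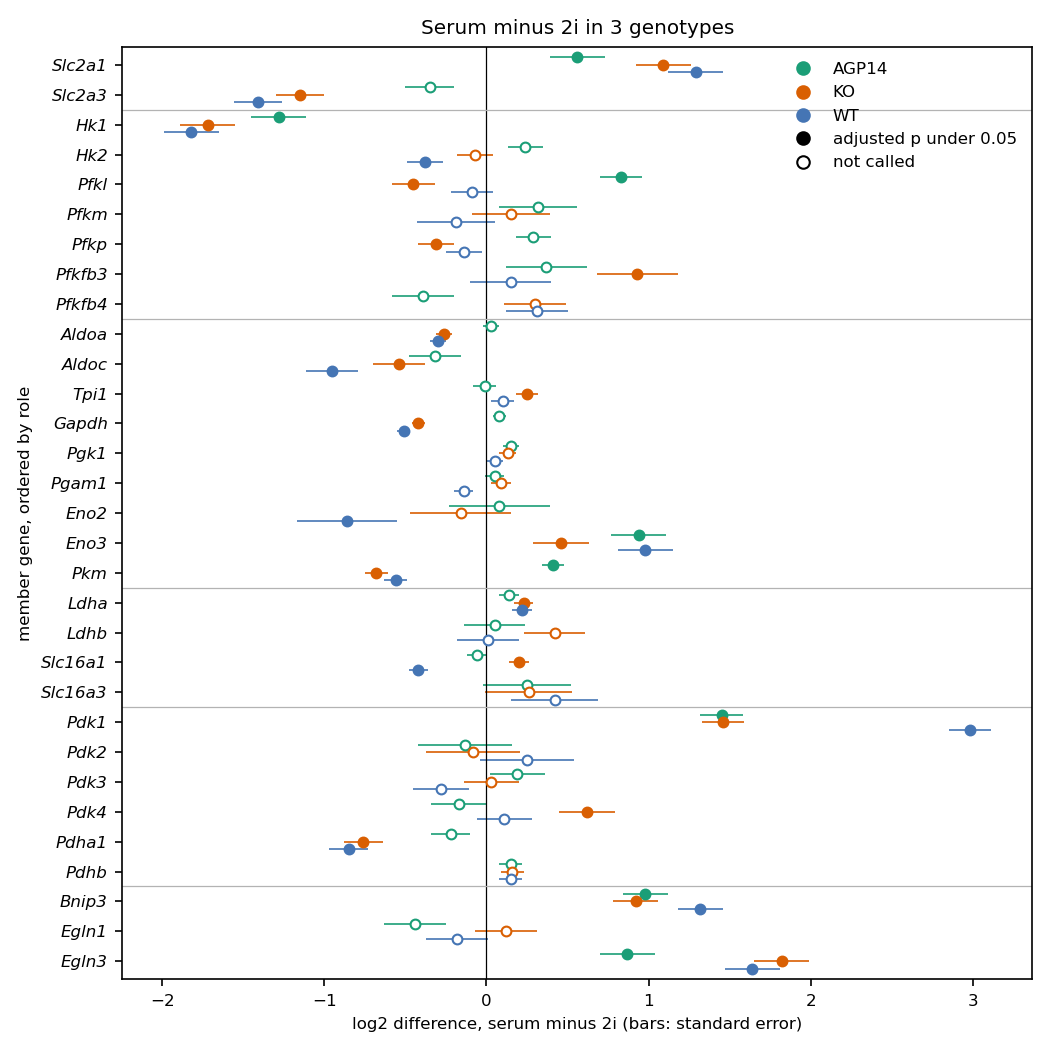
Log2 difference of serum minus 2i for the 31 members in AGP14, knockout (KO) and wild type (WT), with the standard error from limma as bars and filled points for an adjusted p under 0.05. Pdk1 in wild type is farthest to the right at 2.98, and Pkm and Pfkl lie on opposite sides of 0 in AGP14 and knockout.

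The promoters of Pdk1, Slc2a1, Bnip3 and Egln3 are shown as examples of members that rose in serum in all 3 genotypes and in EpiLC of day 2. Eno3 rose in the same comparisons, and its promoter is not shown. The sequences are the 250 bases before the annotated start in RefSeq (GRCm38.p6), read 5′ to 3′ on the gene's strand. They lie at chr2:71872974-71873223 (plus strand) for Pdk1, chr4:119108495-119108744 (plus strand) for Slc2a1, chr7:138909507-138909756 (minus strand) for Bnip3 and chr12:54203875-54204124 (minus strand) for Egln3. Capitals mark ACGTG or GCGTG on either strand, the core letters of a HIF site, which overlap the E-box CACGTG of other factors.
Pdk1: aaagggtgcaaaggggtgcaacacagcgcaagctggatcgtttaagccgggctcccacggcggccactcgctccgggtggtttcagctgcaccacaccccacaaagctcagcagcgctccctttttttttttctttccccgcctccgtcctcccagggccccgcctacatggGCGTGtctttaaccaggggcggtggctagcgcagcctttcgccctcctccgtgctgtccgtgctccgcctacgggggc
Slc2a1: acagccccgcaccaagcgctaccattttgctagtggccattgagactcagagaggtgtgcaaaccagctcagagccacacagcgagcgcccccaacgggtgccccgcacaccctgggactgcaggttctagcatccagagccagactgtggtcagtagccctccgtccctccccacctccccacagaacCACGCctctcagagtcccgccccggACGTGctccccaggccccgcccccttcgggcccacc
Bnip3: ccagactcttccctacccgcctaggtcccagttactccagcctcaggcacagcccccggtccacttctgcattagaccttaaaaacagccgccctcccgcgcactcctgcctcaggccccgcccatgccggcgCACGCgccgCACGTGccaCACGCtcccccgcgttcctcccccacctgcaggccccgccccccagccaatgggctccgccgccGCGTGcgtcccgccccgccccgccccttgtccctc
Egln3: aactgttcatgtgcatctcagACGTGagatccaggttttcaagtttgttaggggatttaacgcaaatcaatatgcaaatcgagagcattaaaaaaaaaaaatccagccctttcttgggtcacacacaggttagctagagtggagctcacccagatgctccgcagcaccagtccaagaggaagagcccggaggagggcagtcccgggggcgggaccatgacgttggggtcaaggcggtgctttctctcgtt
The window of Bnip3 holds 5 such matches, 2 of them the overlapping strands of 1 CACGTG, or 4 places with that one counted once, that of Slc2a1 2, and those of Pdk1 and Egln3 1 each. A second annotated start of Pdk1 has none. A match was found for 28 of the 30 members with a promoter in the table, and in 34 of their 42 windows (81.0%), against 38.6% of 32851 windows of all genes. The members with matches include Hk1, Pfkp and Pdha1, which fell in one or more comparisons, and the matches are a description of letters, with base composition not taken into account.

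Cell state markers, feeder signal and the pathway's other genes moved in the same comparison. Of the 8 naive markers 2, 8 and 7 fell in serum in AGP14, knockout and wild type (medians -0.33, -2.16 and -1.46), and of the 6 epiblast-like markers 6, 5 and 6 rose (medians 2.82, 4.0 and 3.82). Of the 17 feeder markers, 12 fell and 1 rose in AGP14 serum, 14 fell in knockout and 14 fell in wild type, with median differences of -1.17, -1.82 and -1.80, and the part of these markers in the member results was not tested. Of 59 measured further genes of glycolysis, pyruvate handling, the pentose phosphate pathway and the HIF pathway, 7 rose and 10 fell in AGP14, 13 rose and 14 fell in knockout and 14 rose and 15 fell in wild type. Myc, which activates glycolytic genes, rose by 1.69, 2.26 and 3.55, and Ankrd37, a HIF target, by 1.35, 2.22 and 1.42. Hif1a, the HIF subunit gene, fell by 0.39, 0.36 and 0.35, and Me1, the cytosolic malic enzyme gene, by 1.11, 1.62 and 1.58. Bsg (basigin), the chaperone of MCT1, fell by 1.74 in knockout and 1.67 in wild type. For these genes too, medium and spike-in set cannot be told apart in knockout and wild type.

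The calls that held without each array in turn were 7 of 8 in AGP14, 10 of 19 in knockout and 13 of 16 in wild type. In knockout, quantile normalization gave 12 higher and 6 lower members in place of 10 and 9. The calls lost there, beside those given above, were Pfkp, Aldoc, Tpi1 and Pfkfb3 in knockout (adjusted p up to 0.412, 0.168, 0.0814 and 0.16) and Eno2 in wild type (up to 0.52).

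Adding the MEK inhibitor to serum asks which of these differences MEK inhibition alone moves. Pdk1, Egln3, Bnip3, Slc2a1 and the triose phosphate isomerase gene Tpi1 fell in both genotypes, and Slc2a3, Hk1, Pdha1 and Pfkp rose in both. In knockout cells 7 members rose and 8 fell, where 15% of all genes rose and 9.56% fell. In wild-type cells 8 rose and 7 fell, where 14.3% rose and 11.2% fell. These are 22.6% and 25.8% of the members in knockout and 25.8% and 22.6% in wild type. The serum arrays also enter serum against 2i, so opposite signs between both comparisons are not independent.

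Pdk1 read 11.06 and 11.02 in knockout cells with the inhibitor against 12.21 and 12.37 in serum, and 10.32 and 10.06 in wild-type cells with the inhibitor against 12.08 and 12.10 in serum. It fell by 1.25 and by 1.90 (adjusted p = 2.18e-06 and 2.69e-08). Egln3 read 7.43 and 7.4 against 8.86 and 8.78 in knockout, and 7.13 and 7.27 against 8.79 and 8.75 in wild type. Its falls were 1.40 and 1.57 (adjusted p = 8.51e-06 and 3.06e-06), and with the inhibitor both genotypes lay near their 2i values. Bnip3 fell by 0.69 and 0.92 and Tpi1 by 0.42 and 0.31, while Slc2a1 fell by 0.75 and 0.57 with calls that were lost without knockout serum array 2 or inhibitor array 1 (adjusted p = 0.065 and 0.0579) and without wild-type serum array 1 or inhibitor array 2 (0.186 and 0.171).

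Slc2a3 read 12.93 and 13.16 with the inhibitor against 11.83 and 12.28 in knockout serum, and 12.98 and 12.99 against 11.62 and 11.87 in wild-type serum. It rose by 0.99 and 1.24 (adjusted p = 6.8e-05 and 7.1e-06). Hk1 rose by 1.14 in knockout and by 0.71 in wild type, where the call was lost without serum array 1 or inhibitor array 2 (adjusted p = 0.102 and 0.0553). Pdha1 rose by 0.55 and 0.63 and Pfkp by 0.70 and 0.47. Gapdh and Pkm rose by 0.45 and 0.76 in knockout and by 0.46 and 0.68 in wild type. Their array values did not overlap between the spike-in sets. The comparison runs across the spike-in split in both genotypes, so medium and spike-in set cannot be told apart, and 14 feeder markers in knockout and 15 in wild type rose as well, as did 8 and 6 of the 8 naive markers, while 4 and 3 of the 6 epiblast-like markers fell. Calls held without each array were 11 of 15 in knockout and 10 of 15 in wild type. Those lost, beside the above, were Pfkl, Pdk4 and Pfkfb3 in knockout (adjusted p up to 0.0752, 0.0928 and 0.0698) and Hk2, Pfkl and Aldoa in wild type (up to 0.116, 0.189 and 0.0916). Among the further pathway genes 13 rose and 7 fell in knockout and 11 rose and 10 fell in wild type. Bsg rose by 1.42 and 1.2, Myc fell by 1.07 and 1.57, and Ankrd37 fell by 1.10 and 0.78.

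Serum with MEK inhibitor can be set against 2i within the high-lys arrays, a comparison added after the spike-in levels were seen. In knockout cells 3 members rose and 4 fell, where 6.61% of all genes rose and 6.59% fell. In wild-type cells 3 rose and 4 fell, where 5.45% rose and 7.06% fell. Pdk1 rose by 1.08 in wild type (adjusted p = 3.46e-05), and in knockout its difference of 0.21 did not pass. Egln3 differed by 0.42 and 0.07 and Slc2a3 by -0.16 and -0.17 in knockout and wild type, without a call, and Bnip3 by 0.23 and 0.40. Hk1 fell by 0.58 in knockout (adjusted p = 0.029; 0.258 and 0.41 without 2i array 2 or inhibitor array 1) and by 1.12 in wild type (adjusted p = 2.48e-04). Aldoa and Aldoc, the aldolase genes, fell in both genotypes, by 0.29 and 0.80 in knockout and 0.47 and 1.04 in wild type, and all 4 calls held without each array. The feeder markers were lower here too, with 11 of 17 called lower and 1 higher in knockout and 10 lower and 3 higher in wild type, and their part was not tested. Of these 14 member calls, 7 held without each array in turn. Beside Hk1, those lost were Pfkp, Eno3 and Ldhb in knockout (adjusted p up to 0.289, 0.0866 and 0.365) and Eno3, Slc2a1 and Slc16a1 in wild type (up to 0.274, 0.145 and 0.0877). The mean of probe sets gave 8 calls, and the fits to the compared arrays alone gave 3 calls. Of the 59 further genes 12 rose and 6 fell in knockout and 5 rose and 8 fell in wild type, among them Pdp2, a pyruvate dehydrogenase phosphatase gene, which fell by 1.44 and 1.22.

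Removing LIF from serum for 2 days touched few members. In AGP14 cells none was called by limma, where 0.115% of all genes rose and 0.187% fell. The unadjusted p of limma was under 0.05 for 2 of the 31 members and 1993 of the 18194 genes. In knockout cells 0 rose and 2 fell, where 0.269% rose and 0.83% fell. In wild-type cells 0 rose and 2 fell, where 0.33% rose and 1.17% fell. The 2 were Pfkp and Hk2 in both genotypes. Pfkp, the platelet-type phosphofructokinase gene, read 9.13 and 9.0 without LIF against 10.30 and 9.99 with LIF in knockout, and 10.43 and 10.53 against 10.92 and 10.99 in wild type. It fell by 1.08 in knockout (adjusted p = 3.88e-05) and held without each array, and it fell by 0.47 in wild type (adjusted p = 0.0421), where the call was lost without any 1 of the 4 arrays (0.0729 to 0.286). Hk2 fell by 0.48 and 0.59 (adjusted p = 0.0385 and 0.00998). Its knockout call was lost without LIF-free array 1 or either serum array (adjusted p = 0.182 to 0.386), and its wild-type call without LIF-free array 1 or serum array 2 (0.173 and 0.176). In AGP14 the same genes differed by -0.23 and -0.37 with no call. Of the 8 naive markers 0, 6 and 8 fell in AGP14, knockout and wild type, and their part was not tested. Feeder markers barely differed, with 0 called in AGP14 and 1 lower in each of the other genotypes. Of the further genes 0, 4 and 2 fell in AGP14, knockout and wild type and none rose; Epas1, a second HIF subunit gene, fell by 1.32 in knockout and 0.61 in wild type.

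EpiLC of day 2 were set against wild type in 2i, which are different lines on the same side of the spike-in split. Pdk1, Tpi1, Egln3, Bnip3, Eno3, Pfkl, Slc16a3, Pkm and Ldha rose and Pfkp, Hk1, Pdk4, Slc2a3, Ldhb and Hk2 fell, and these 15 calls held without each array in turn. Altogether 15 members rose and 7 fell, where 17.2% of all genes rose and 21% fell. As shares of the members these are 48.4% and 22.6%, and the median member difference was 0.16, beside -0.01 over all genes.

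Isoenzyme genes of the same step moved apart. Pfkp read 8.61 and 8.65 in EpiLC of day 2 against 10.96 and 11.23 in wild type in 2i, and Pfkl read 9.17 and 9.15 against 8.04 and 8.36. Pfkp fell by 2.46, 5.52-fold (SE 0.11; adjusted p = 6.77e-12), and Pfkl rose by 0.96 (SE 0.13; adjusted p = 9.25e-06). Hk1 read 8.40 and 8.30 against 10.29 and 10.48 and fell by 2.04 (adjusted p = 1.87e-08), with Hk2 falling by 0.52. Ldha, at 13.21 and 13.15 against 12.65 and 12.86, rose by 0.43 (adjusted p = 2.1e-05), and Ldhb, the heart-type subunit gene, at 10.69 and 10.84 against 11.95 and 11.84, fell by 1.13 (adjusted p = 7.23e-05). The transporter genes differed likewise, with Slc2a3 falling by 1.21 and Slc2a1 rising by 0.63, a call lost without wild-type 2i array 1 or EpiLC array 2 (adjusted p = 0.131 and 0.0575).

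Pyruvate control genes changed in opposite directions. Pdk1 read 10.80 and 10.86 in EpiLC of day 2 against 8.90 and 9.32, and rose by 1.72 (adjusted p = 7.69e-09). Pdk4, the kinase gene linked to fasting and fat use, read 5.79 and 6.11 against 7.82 and 7.91, and fell by 1.91 (adjusted p = 2.83e-08). Tpi1 read 12.51 and 12.50 against 11.43 and 11.66 and rose by 0.96, Egln3 by 1.57, Bnip3 by 1.21, Eno3 by 1.51 and Slc16a3 by 1.48. The small rises of Aldoa, Gapdh, Pgk1 and Pgam1 (0.13 to 0.19), that of Pdk3 (0.64) and the fall of Eno2 (0.89) were each lost without 1 or more arrays (adjusted p up to 0.0822, 0.116, 0.233, 0.174, 0.0694 and 0.329). All 8 naive markers fell and all 6 epiblast-like markers rose. Of the 17 feeder markers 15 were lower and 1 higher, with a median difference of -2.85, and their part was not tested. Among the further genes 14 rose and 16 fell, with Myc higher by 4.38, Ankrd37 by 1.57 and Kdm3a, a HIF-responsive demethylase gene, lower by 1.35.

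Day 3 was compared with day 2 on the same line, and several members that had risen or fallen by day 2 differed the other way. Both comparisons use the day 2 arrays, so such opposite signs are not independent. In day 3 cells 5 members rose and 9 fell, where 7.89% of all genes rose and 9.68% fell. Pdk4 read 7.89 and 7.85 on day 3 against 5.79 and 6.11 on day 2, and rose by 1.92 (SE 0.17; adjusted p = 2.56e-07), and Slc2a3 read 12.78 and 12.82 against 12.01 and 11.89, and rose by 0.85 (adjusted p = 3.96e-04). Bnip3 read 9.36 and 9.45 on day 3 against 10.71 and 10.80 on day 2, Pdk1 9.95 and 9.89 against 10.80 and 10.86, and Egln3 7.65 and 7.46 against 8.70 and 8.70. They fell by 1.35, 0.91 and 1.14 (adjusted p = 1.69e-06, 8.96e-05 and 9.96e-05). Slc2a1 (-0.02), Hk1 (0.18), Pfkp (-0.12) and Ldhb (0.07) differed without a call. Pfkfb3, which makes and breaks down the phosphofructokinase activator fructose 2,6-bisphosphate, rose by 1.37 and Tpi1, Ldha and Pgam1 fell by 0.42, 0.30 and 0.27. These 9 calls held without each array. Those of Hk2, Pfkm, Pkm, Slc16a1 and Egln1 did not (adjusted p up to 0.054, 0.0509, 0.278, 0.264 and 0.309), and a further Pdk1 probe set differed by 0.45, opposite in sign. Feeder markers averaged 6.61 on day 3 and 6.21 on day 2, with 6 of 17 higher. Of the further genes 7 rose and 6 fell, with Mycn lower by 2.21 and Ddit4, an mTOR inhibitor gene that hypoxia induces, by 1.07.

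Knockout was compared with wild type in 4 media, each within 1 spike-in set. Pfkp fell in the arrays labelled knockout in all 4 media, and no other member was called in all 4. In 2i 3 members rose and 6 fell, where 3.63% of all genes rose and 5.52% fell. In serum 1 rose and 1 fell, where 1.39% rose and 2.79% fell, and quantile normalization gave 2 and 1. Without LIF 2 rose and 2 fell, where 1.75% rose and 2.44% fell. With MEK inhibitor 3 rose and 4 fell, where 1.86% rose and 2.22% fell. Altogether 18 of the 31 members had no call in any of the media, and the matching share of all genes was not computed.

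Pfkp read 10.60 and 10.31 in knockout against 10.96 and 11.23 in wild type in 2i, 10.30 and 9.99 against 10.92 and 10.99 in serum, 9.13 and 9.0 against 10.43 and 10.53 without LIF, and 10.99 and 10.71 against 11.44 and 11.41 with MEK inhibitor. The genotypes did not overlap in any medium, and the gap was widest without LIF. It fell by 0.64, 0.81, 1.41 and 0.57 (SE 0.11; adjusted p = 0.00128, 5.22e-04, 1.09e-06 and 0.00557), and the call with MEK inhibitor was lost without knockout array 2 or wild-type array 1 (adjusted p = 0.0913 and 0.0522). Whether the gap differed between media was tested for 3 of the 6 pairs of media, each with serum as one of them. No term passed for Pfkp, with -0.60 for the step from serum to serum without LIF, and the gap without LIF was not tested against those in 2i or with MEK inhibitor.

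The genotype difference of Pdk1 passed in both media that held the MEK inhibitor. It read 10.68 and 10.98 in knockout against 8.90 and 9.32 in wild type in 2i, a rise of 1.72 (adjusted p = 2.13e-07), and 11.06 and 11.02 against 10.32 and 10.06 with MEK inhibitor, a rise of 0.85 (adjusted p = 0.00109). In serum and without LIF it differed by 0.20 and 0.02 with no call. The genotype difference in serum minus that in 2i was -1.52 (SE 0.19; adjusted p = 2.49e-04), so the gap in 2i was larger than that in serum beyond the spread. The change of the gap from serum to serum with MEK inhibitor, 0.65, did not pass. Both terms set low-lys serum arrays against high-lys arrays, so medium and spike-in set cannot be told apart in them. Bnip3, at 10.17 and 10.16 in knockout against 9.35 and 9.74 in wild type in 2i, rose by 0.62 (adjusted p = 0.00745), a call lost without wild-type 2i array 1 (0.16).

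Slc16a1 read 11.01 and 10.87 in knockout against 11.41 and 11.32 in wild type in 2i, 11.21 and 11.06 against 10.94 and 10.95 in serum, and 10.59 and 10.59 against 11.11 and 11.08 with MEK inhibitor. It fell by 0.42 in 2i and by 0.51 with MEK inhibitor (adjusted p = 2.94e-04 and 1.28e-04), and differed by 0.19 in serum and 0.06 without LIF with no call. Its genotype difference moved by 0.62 between 2i and serum and by -0.70 between serum and serum with MEK inhibitor (SE 0.09 each; adjusted p = 0.00118 and 0.00154). For the genotype-by-medium term of serum against 2i 2 members were called, where 2.97% of all genes were, and 3 of the 59 further genes were higher and 2 lower. For MEK inhibitor against serum 1 was, where 0.231% were. Both of these terms span the spike-in split. For removal of LIF limma called 0 of the 31, where 0% of all genes were called. Its unadjusted p was under 0.05 for 1 of the 31 members and 654 of the 18194 genes.

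Pdk4 fell in knockout by 0.85 in 2i (adjusted p = 0.00267) and by 0.68 with MEK inhibitor (adjusted p = 0.024), the second call being lost without knockout array 1 or wild-type array 2 (0.276 and 0.205). Tpi1 rose in knockout in serum, without LIF and with MEK inhibitor, by 0.37, 0.28 and 0.25 (adjusted p = 0.00545, 0.025 and 0.0459). Each of the Tpi1 calls was lost without 1 or more arrays (adjusted p up to 0.0661, 0.229 and 0.322). Ldhb, at 10.87 and 11.33 in knockout against 11.95 and 11.84 in wild type in 2i, fell by 0.79 (adjusted p = 0.0106; 0.153 and 0.0953 without knockout or wild-type array 1). Hk2 fell by 0.48 in 2i and 0.49 with MEK inhibitor, and Aldoc by 0.76 and Pfkl rose by 0.63 in 2i. These and the calls of Slc2a3 and Pdhb without LIF and of Ldha with MEK inhibitor were also lost without 1 or more arrays (adjusted p up to 0.116, 0.163, 0.1, 0.0975, 0.36, 0.292 and 0.162). Fits to the compared arrays alone, with 2 against 2, left 1 of the 22 calls of these 4 comparisons, that of Pfkp without LIF. Of the 8 naive markers 4 were lower in knockout in serum and 4 without LIF, and 0 in the other media, and their part was not tested. The feeder marker means of knockout and wild type were 9.72 and 9.75 in 2i, 7.50 and 7.35 in serum, 7.73 and 7.29 without LIF, and 8.65 and 8.80 with MEK inhibitor. Of the 59 further genes 4 rose and 8 fell in 2i, 0 and 2 in serum, 0 and 2 without LIF, and 4 and 2 with MEK inhibitor, with Pcx, the pyruvate carboxylase gene, lower by 1.03 in 2i and Epas1 lower by 1.14 without LIF.

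AGP14 cells carry the pPyCAG-AGP14 transgene in the knockout background and were compared with knockout cells in 3 media. Pfkp rose in serum and without LIF, the media in which it was lower in knockout than in wild type by the most. In 2i, which crosses the spike-in split, 3 members rose and 7 fell, where 8.22% of all genes rose and 16% fell. With quantile normalization the counts were 5 and 6. In serum 2 rose and 3 fell, where 5.23% rose and 5.28% fell. Without LIF 3 rose and 2 fell, where 8.09% rose and 5.22% fell. These comparisons share the knockout arrays with those of knockout against wild type, so opposite signs between them are not independent.

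Pfkp read 11.08 and 10.97 in AGP14 against 10.30 and 9.99 in knockout in serum, and 10.80 and 10.78 against 9.13 and 9.0 without LIF. It rose by 0.88 and 1.72 (adjusted p = 6.49e-05 and 2.34e-08), both held without each array, and in 2i it differed by 0.28 with no call. The AGP14 values without LIF lay above the wild-type values of 10.43 and 10.53, a difference that was not tested. Egln3 read 7.94 and 7.85 in AGP14 against 8.86 and 8.78 in knockout in serum, and fell by 0.92 (adjusted p = 0.00165). Without LIF the fall was 0.62 (adjusted p = 0.0195; lost without any 1 of the 4 arrays, 0.0876 to 0.0996). Ldhb, at 11.88 and 12.08 in AGP14 against 10.87 and 11.33 in 2i, rose by 0.88 (adjusted p = 0.00188). Without LIF the rise was 0.77 (adjusted p = 0.00938; 0.11 and 0.0666 without AGP14 array 2 or knockout array 1).

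Pdk4 rose by 0.81 in 2i (adjusted p = 0.0013). Pdk1 fell by 0.59 in 2i and by 0.60 in serum (adjusted p = 0.00306 and 0.00697), calls lost without AGP14 or knockout array 2 in each medium (0.0525 to 0.0738). Hk2 rose by 0.43 in serum and 0.54 without LIF and Tpi1 fell by 0.30 and 0.25, all 4 lost without 1 or more arrays (adjusted p up to 0.116, 0.0566, 0.128 and 0.129). The falls of Pkm (1.09), Pfkl (1.37), Gapdh (0.46) and Aldoa (0.34) in 2i have no call in serum or without LIF, where both genotypes share a spike-in set and these genes differed by -0.08 to 0.04. For these and every other member, Ldhb, Pdk4 and Pdk1 included, genotype and spike-in set cannot be told apart in 2i. Slc2a3, Pfkfb4 and Bnip3 in 2i were lost without 1 or more arrays (adjusted p up to 0.0987, 0.0721 and 0.144). Feeder marker means in AGP14 and knockout were 9.27 and 9.72 in 2i, 7.78 and 7.50 in serum, and 8.0 and 7.73 without LIF. All 8 naive markers were higher in AGP14 in serum and without LIF (medians 1.65 and 2.56), where 4 and 2 of the 6 epiblast-like markers were lower, and the part of these markers in the member results was not tested. Of the further genes 11 rose and 9 fell in 2i, 7 and 5 in serum and 9 and 7 without LIF, with Epas1 higher by 2.02 without LIF and Kdm3a by 0.92 in serum and 1.21 without LIF.

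Isoenzyme balance was followed as the log2 difference of a pair of paralogous genes on each array, of which only the change between groups can be read, because probe sets differ in their brightness for equal RNA. No test was made on these differences. The balance of Slc2a3 against Slc2a1 was 0.92 lower in serum than in 2i in AGP14, 2.24 lower in knockout and 2.71 lower in wild type (SE 0.24 each), and with MEK inhibitor it was 1.74 and 1.81 higher than in serum in knockout and wild type. The arrays did not overlap in any of these 5 comparisons. For every pair, serum against 2i in knockout and wild type crosses the spike-in split, as does MEK inhibitor against serum. Serum against 2i in AGP14 does not. Within the high-lys arrays, the balance of Slc2a3 against Slc2a1 in serum with MEK inhibitor differed from 2i by -0.51 in knockout and -0.89 in wild type. Hk2 against Hk1 stood 1.52, 1.65 and 1.44 higher in serum than in 2i in AGP14, knockout and wild type and 1.51 higher in EpiLC of day 2 than in wild type in 2i (SE 0.12 each). These changes came mostly from Hk1, as the single-gene values above show.

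Phosphofructokinase balance separated the EpiLC from all stem cell groups. Pfkp against Pfkl was -0.53 in EpiLC of day 2 and 2.90 in wild type in 2i, a change of -3.43 (SE 0.18), or 10.7-fold, and it did not move further on day 3. In knockout it was lower than in wild type by 1.28 in 2i, 1.08 in serum, 1.70 without LIF and 0.92 with MEK inhibitor, and in AGP14 it was higher than in knockout by 1.65, 0.96 and 1.72 in 2i, serum and without LIF. The 2i value of AGP14 against knockout crosses the spike-in split. There Pfkl differed by -1.37 and Pfkp had no call, and genotype and spike-in set cannot be told apart. Pdk4 against Pdk1 was 3.63 lower in EpiLC of day 2 than in wild type in 2i, 12.4-fold, and 2.83 higher on day 3 than on day 2 (SE 0.20). In knockout it was lower than in wild type by 2.57 in 2i and 1.53 with MEK inhibitor. Ldhb against Ldha was 1.56 lower in EpiLC of day 2 than in wild type in 2i (SE 0.21) and 0.94 lower in knockout than in wild type in 2i, and Egln3 against Egln1 stood 1.31, 1.69 and 1.82 higher in serum than in 2i in AGP14, knockout and wild type (SE 0.28).

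**Figure D5:**
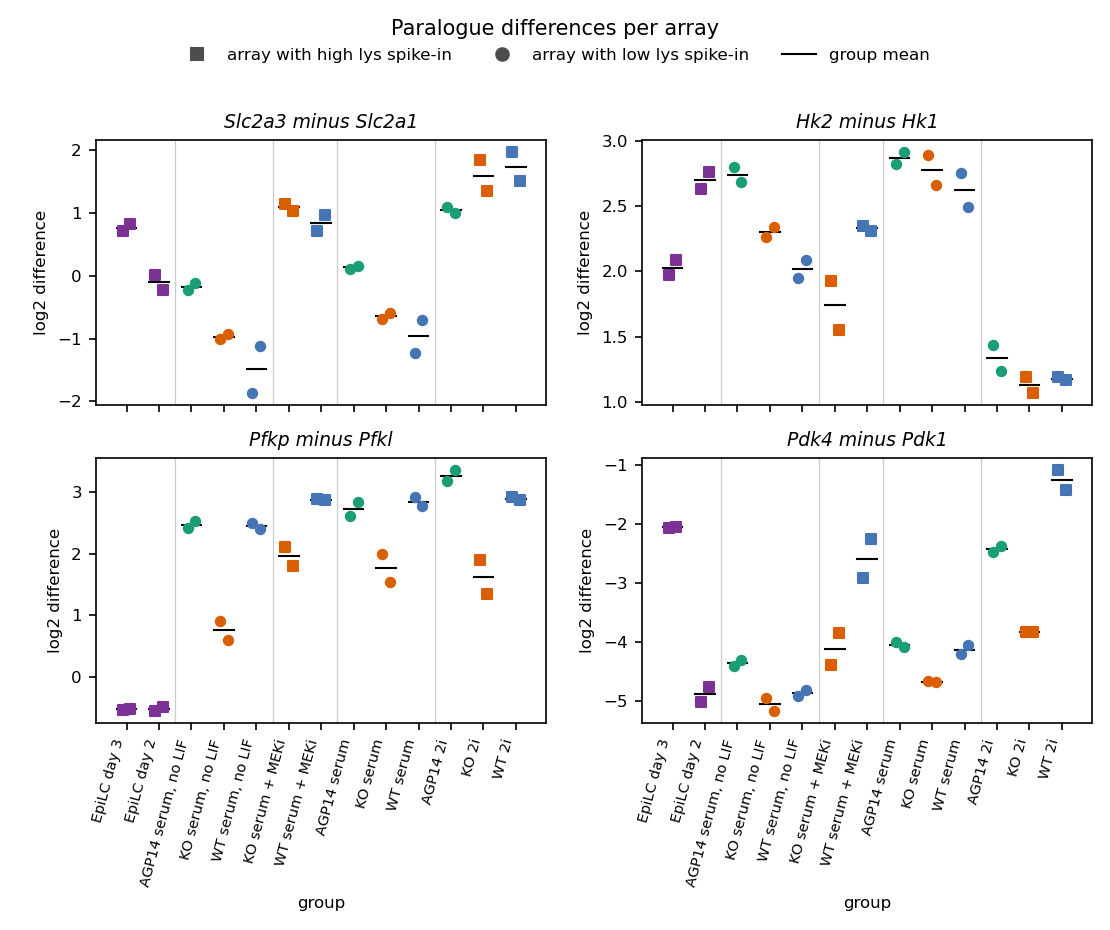
Points are the log2 difference of 2 paralogous genes on each array, by group, with squares for arrays with high lys spike-in, circles for low and bars for group means. Heights between panels and the place of 0 carry no meaning, and within panels Slc2a3 minus Slc2a1 is lower in serum than in 2i, Pfkp minus Pfkl is lowest in EpiLC, and Pdk4 minus Pdk1 is highest in wild type in 2i.

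Among 115 pairs of a called member and a comparison for which the gene had further probe sets, 14 had a further probe set of the opposite sign, among them Pfkl in 5 of the comparisons, Aldoa and Pfkfb3. Slc2a1, Hk1, Slc2a3 and Egln3 have further probe sets and were not among them, and Bnip3 has a single one. Of the 31 members, 7 lie on mouse chromosome 6 (Hk2, Tpi1, Gapdh, Eno2, Ldhb, Slc2a3 and Pdk4), and their directions differed from each other: in EpiLC of day 2 Tpi1 and Gapdh rose while Hk2, Ldhb, Slc2a3, Pdk4 and Eno2 fell.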

How the data were processed

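Each of 26 Affymetrix arrays measured 1 RNA sample, in 13 groups of 2 taken from the labels. The authors deposited a table of 45100 probe sets with values read here as log2. No label or header names the image analysis, normalization or summarisation. Per the labels' protocols, RNA was labelled by the Affymetrix one-cycle method. Of the probe sets, the platform annotation gave 34957 exactly 1 symbol and 932 several (not used), and did not list 9211. Each of 18194 genes was read from its brightest probe set with 1 symbol.

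Differences were tested in limma 3.58.1 (R 4.3.3) with 1 coefficient per group over all arrays, 13 residual degrees of freedom and an intensity trend in eBayes. Tests were two-sided, with Benjamini-Hochberg adjustment across all genes and calls at an adjusted p under 0.05. The procedure was tested on simulated data. Tables and plots used Python 3.11.15, pandas 2.3.3, numpy 2.4.6 and matplotlib 3.10.9. The number of arrays limits the precision.

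Members, marker lists and the 66 further pathway genes (59 measured) were chosen with earlier results of these data known. Every measured member could be named, and further genes only where called and among the 5 smallest p of a comparison, or where a value stands beside a member's result. Alternatives were the mean of a gene's probe sets, no intensity trend, quantile normalization, leaving out dim genes, the compared arrays alone, replicate blocks and leaving out each array. Serum with MEK inhibitor against 2i was added after the spike-in levels were seen.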

Additional observations from a re-analysis of the deposited data

Results flagged for a closer look

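The difference between media was unlike in knockout and wild type for 2 members, by a test of that contrast itself. For Pdk1 the serum minus 2i difference was 1.46 in knockout and 2.98 in wild type, so the genotype-by-medium term was -1.52 (SE 0.19; limma adjusted p = 2.49e-04). For Slc16a1 the serum minus 2i difference was 0.20 in knockout and -0.42 in wild type, a term of 0.62 (SE 0.09; adjusted p = 0.00118). Its MEK inhibitor minus serum difference was -0.55 in knockout and 0.15 in wild type, a term of -0.70 (adjusted p = 0.00154). Each gap between knockout and wild type lies within a spike-in set. Each term, however, sets a gap on low-lys arrays against a gap on high-lys arrays. Medium and spike-in set therefore cannot be told apart in these terms. No term was lost without 1 array, but all were lost when the compared arrays were fitted alone. The MEK inhibitor term of Slc16a1 was also lost with the mean of probe sets.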

How the results depend on the processing

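Every member call kept its direction under the alternatives run. Of 172 calls, 165 of 165 tested were kept with dim genes left out, 164 with quantile normalization, 142 with averaged probe sets, 145 without the intensity trend and 111 with the compared arrays alone, where 2 arrays a group leave few degrees of freedom. Leaving out 1 array at a time kept a call 546 times and lost it 154 times. The 14 calls of serum with MEK inhibitor against 2i were 8 with the mean of probe sets and 3 with the compared arrays alone, and 12 to 16 without 1 array. For removal of LIF the count of 4 calls was 2 without the trend and 2 with quantile normalization. The compared arrays alone gave 1, in AGP14, and kept 0 of the 4. Without 1 array the count was 2 to 4. The 22 calls of knockout against wild type were 1, and the 3 of genotype by medium 0, with the compared arrays alone. Without 1 array the counts ran from 38 to 42 for serum against 2i (43 with all), 25 to 32 for MEK inhibitor against serum (30), 17 to 20 for EpiLC day 2 (22), 11 to 13 for day 3 (14), 18 to 24 for knockout against wild type, 16 to 23 for AGP14 against knockout (20), 3 to 3 for genotype by medium, and 28 to 30 for the F test (29). Same-numbered arrays correlated across media, in their deviations from group means, at 0.11 to 0.22 in wild type, 0.10 to 0.20 in knockout and 0.01 to 0.07 in AGP14. With 2 numbers a line, this is a hint of pairing within wild type and knockout but sets no pairs. With a replicate block on the number or on the line, all 172 calls were kept, and serum against 2i gave 46 with the number as block and 52 with line and number as a random block, MEK inhibitor against serum 30 and 35, serum with MEK inhibitor against 2i 15 and 19, and removal of LIF 5 and 6. The cause of the lost calls was not tested.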
